A study of Mus musculus with 16 samples.

Results

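The collagen chain genes are the 39 genes of mouse gastrocnemius muscle whose symbol joins Col, a number, the letter a and a number, and whose count averaged 20 or more over the 16 mice. The rule used name and mean count and no difference between groups, but was set with earlier results of these data known. It chose the 39 members from 44 genes named in this way and 24454 genes in the counts table. By textbook roles they were set apart as 11 fibrillar, 9 basement membrane, 4 endplate or tendon, 5 beaded filament and 10 other collagens. Just inside the limit were Col26a1 and Col2a1, with mean counts of 29.7 and 43.5. Just under it were Col10a1 at 19.0, Col25a1 at 18.1, Col9a2 at 17.8, Col9a3 at 11.6 and Col6a4 at 2.62. All 39 members passed edgeR's filter on low counts and were among the 15487 genes tested.

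RNA was sequenced from 3-month-old HSALR mice and FVB/N control mice, each given vehicle or AICAR at 500 mg/kg for 7 days. HSALR mice of the LR20b line were homozygous for a human skeletal actin transgene with a long CTG repeat, on the FVB/N background, and are a model of myotonic dystrophy type 1. That transgene is driven in skeletal muscle fibres, whereas AICAR, an activator of AMP-activated protein kinase, reaches the whole animal. There were 5 HSALR mice with vehicle, 5 HSALR mice with AICAR, 3 FVB/N mice with vehicle and 3 FVB/N mice with AICAR. A piece of the powdered whole muscle gave the RNA, so that fibres, nerve, vessels, connective tissue and tendon were read together.

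Collagens are triple helices of α chains that are secreted and assembled outside the cell. In muscle, fibroblasts make most of the fibrillar collagens of types I, III and V, which give the endomysium, perimysium and tendon their strength. Type IV collagen forms the network of the basement membrane around each fibre and capillary, type VI collagen links that membrane to the fibrils, and other collagens mark the endplate and the myotendinous junction.

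Promoter sequences are shown for 4 members that the results below turn on, 2 of the most abundant fibrillar genes and the only 2 members that were higher in HSALR mice after vehicle. They come from the RefSeq table of GRCm38.p6 (the assembly of mm10), in which 31 of the 39 members had an entry. Each lies upstream of the annotated start site on the plus strand and is given 5′ to 3′, and bases that fell in an annotated exon were left out. The windows are chr1:45311288-45311537 for Col3a1, chr6:4505370-4505492 for Col1a2, chr9:108953336-108953585 for Col7a1 and chr3:145292222-145292471 for Col24a1.
Col3a1: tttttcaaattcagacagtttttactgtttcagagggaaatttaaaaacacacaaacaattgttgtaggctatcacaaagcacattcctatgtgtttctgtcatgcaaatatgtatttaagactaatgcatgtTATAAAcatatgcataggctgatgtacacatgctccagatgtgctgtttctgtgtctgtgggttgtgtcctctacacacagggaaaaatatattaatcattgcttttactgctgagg
Col1a2: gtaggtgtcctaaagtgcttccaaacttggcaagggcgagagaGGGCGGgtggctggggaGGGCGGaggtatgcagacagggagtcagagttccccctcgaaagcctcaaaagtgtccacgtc
Col7a1: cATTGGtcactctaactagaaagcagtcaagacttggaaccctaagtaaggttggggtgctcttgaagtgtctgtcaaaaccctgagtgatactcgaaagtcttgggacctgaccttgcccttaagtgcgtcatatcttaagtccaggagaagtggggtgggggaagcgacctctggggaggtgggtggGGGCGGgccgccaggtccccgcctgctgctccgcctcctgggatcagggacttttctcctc
Col24a1: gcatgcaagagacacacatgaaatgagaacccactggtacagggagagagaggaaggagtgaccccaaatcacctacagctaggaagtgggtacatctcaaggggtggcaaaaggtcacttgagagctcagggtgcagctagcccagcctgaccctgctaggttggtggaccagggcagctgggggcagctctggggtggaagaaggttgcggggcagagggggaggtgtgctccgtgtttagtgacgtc
Capitals mark matches, on either strand, to 3 motifs, and none of these matches overlapped another. The motifs are the CCAAT box, written CCAAT, the GC box, written GGGCGG, and the TATA box, written TATAAA. In Col3a1 the match is TATAAA, 117 bases before the start site. In Col1a2 GGGCGG was found 205 and 188 bases before it. In Col7a1 CCAAT was found on the opposite strand 249 bases before the start site and GGGCGG 61 bases before it. Col24a1 held none of these letters in its window. Among 32851 windows of the 250 bases before a start site, 33.8% held CCAAT, 32.7% GGGCGG and 12.4% TATAAA.

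The libraries held 64890014 to 81987726 counted reads (median 73021286), of which 0.122 to 0.262% fell in the 39 collagen genes. Libraries of one group differed from each other by more than counting noise in all 26 pairs (chi-square per degree of freedom 25.1 to 141), so none was counted as a repeat. Nothing in the labels says more than a mouse number about each library, and p-values therefore measure the spread between these mice. Levels are given as CPM, the counts of a gene scaled to library size, and values of single mice stand in the order S445, S446 and S450 (vehicle FVB/N), S447, S448 and S449 (AICAR FVB/N), S451, S452, S453, S458 and S459 (vehicle HSALR), and S454, S455, S460, S462 and S463 (AICAR HSALR). A value with ± after a comparison is a log2 fold change with its SE, and gene positions are on GRCm38. The transgene itself was not analysed here. Clcn1, the muscle chloride channel whose transcript is mis-spliced in this model, was lower in vehicle HSALR mice (79.6 to 107.6 CPM) than in vehicle FVB/N mice (159 to 193 CPM), log2 fold change -1.01 ± 0.11 SE, adjusted p = 9.4e-06. Myofibre markers (Acta1, Ckm, Tnnt3, Myh4 and Mb) were present in every mouse, summing to 95210 to 142800 CPM. Keratin Krt14, an epidermal gene, exceeded 1 CPM in 6 libraries, namely S450 of the vehicle FVB/N mice, S448 of the AICAR FVB/N mice and S452, S453, S458 and S459 of the vehicle HSALR mice. Counts are also given without these 6, which leaves 1 vehicle HSALR mouse (S451), assumed to vary like the other groups. S451 had the highest fibrillar and basement membrane sums of the vehicle HSALR mice, 1464 and 473 CPM. Without the 6, values with AICAR in HSALR mice are thus set against a single mouse with high collagen sums.

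Per kb of transcript, Col1a2 and Col3a1 stood at the top in each group. Over all 16 mice, Col1a2 averaged 64.6 ± 19.7 CPM per kb (SD) and Col3a1 57.3 ± 18.3 CPM per kb, a difference within their spread. Col1a1, the partner of Col1a2 in type I collagen, followed at 29.2 ± 11.6, and Col4a1, the main basement membrane chain, at 26.8 ± 6.52 CPM per kb. Col6a2 and Col6a1, of the beaded filaments, lay at 22.8 ± 5.48 and 22.6 ± 4.49, and Col4a2 at 18.5 ± 3.53 CPM per kb. From Col1a1 to Col6a1 neighbours in this order differed by less than their SDs, and Col4a2 lay within 1 SD of Col6a1. Col4a1 averaged more than Col1a1 after AICAR, at 36.2 ± 2.12 against 29.7 ± 2.71 CPM per kb in FVB/N and 27.8 ± 3.103 against 18.5 ± 4.08 CPM per kb in HSALR mice, and less than Col1a1 after vehicle. Col15a1, Col6a3 and the type V chains Col5a2, Col5a3 and Col5a1 came next, between 5.33 and 10.4 CPM per kb. Over all 16 mice the lowest member was Col4a6 at 0.104 ± 0.0376 CPM per kb. It was not the lowest in every group, since Col2a1 lay below it in AICAR HSALR mice and Col6a5 in AICAR FVB/N mice.

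After AICAR, fibrillar genes made up less and basement membrane genes more of the collagen counts in HSALR mice than after vehicle. The 39 genes together reached 1828 ± 618 CPM (SD, n = 3) in vehicle FVB/N mice and 1900 ± 80.7 CPM (n = 3) in AICAR FVB/N mice. In HSALR mice they reached 1995 ± 322 CPM (n = 5) after vehicle and 1476 ± 185 CPM (n = 5) after AICAR. Vehicle HSALR mice ranged from 1650 to 2473 CPM and AICAR HSALR mice from 1268 to 1750 CPM, so that these groups overlapped. Fibrillar genes made up 58.2 to 61.4% of the collagen sum in the vehicle HSALR mice and 48.1 to 56.2% in the AICAR HSALR mice, with no overlap. Basement membrane genes made up 14.8 to 19.1% and 22.6 to 28.9%, again with no overlap, and this share was the higher after AICAR. The class sums themselves overlapped in HSALR mice, fibrillar genes reaching 960.5 to 1464 CPM after vehicle and 610 to 983 CPM after AICAR, and basement membrane genes 289 to 473 CPM and 349 to 442 CPM. In FVB/N mice the fibrillar share was 53.6 to 62.8% after vehicle and 50.7 to 54.5% after AICAR, while the basement membrane share was 16.4 to 21.5% and 24.8 to 27.4%. Sums and shares are descriptions and were not tested. In the same comparison of AICAR with vehicle in HSALR mice, 2 of 5 endothelial markers were higher, Pecam1 (0.31 ± 0.07, adjusted p = 0.0031) and Emcn (0.50 ± 0.11, adjusted p = 0.004), with sums of 203.5 to 227.1 CPM after AICAR against 170.1 to 219 CPM after vehicle, and of 4 pericyte and smooth muscle markers Pdgfrb was higher (0.31 ± 0.07, adjusted p = 0.0059). None of these 3 calls held without the 6 libraries with Krt14 above 1 CPM (0.21, adjusted p = 0.28, 0.44, adjusted p = 0.29 and 0.13, adjusted p = 0.59). Scaled to Tbp those of Pecam1 and Pdgfrb were lost (adjusted p = 0.12 and 0.21), as were those of Emcn and Pdgfrb with an epidermal marker score as covariate (adjusted p = 0.052 and 0.12). The part of these cells in the shares was not tested. In bulk muscle, fewer cells of a type and less RNA per cell cannot be told apart.

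**Figure D1:**
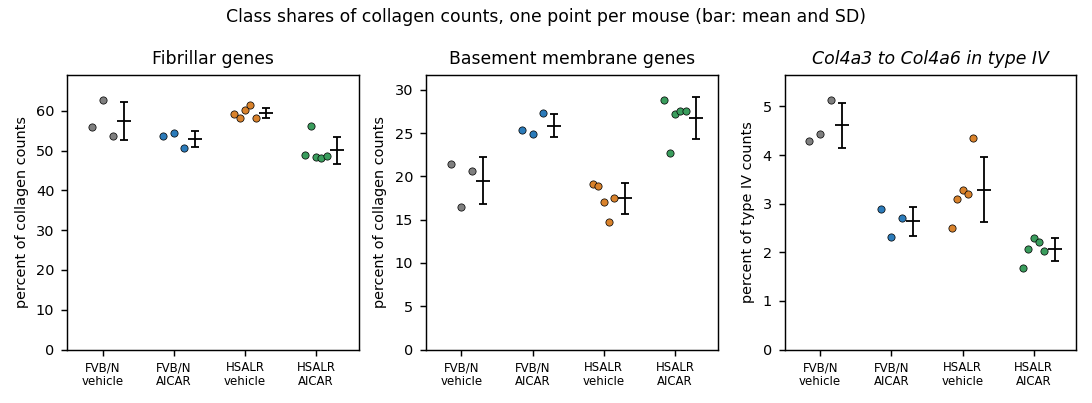
The fibrillar and the basement membrane genes are shown as percent of the counts of the 39 collagen genes, and Col4a3 to Col4a6 together as percent of the type IV counts (vertical axes), in every mouse of the 4 groups (points), with the group mean and SD beside them (bars). After AICAR, the HSALR mice lie lower in the fibrillar panel (48.1 to 56.2%) and higher in the basement membrane panel (22.6 to 28.9%) than the HSALR mice after vehicle.

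The first comparison asked which collagen genes differ with the transgene alone. After vehicle, 2 of the 39 members were higher in HSALR than in FVB/N mice, the minor fibrillar gene Col24a1 and the anchoring fibril gene Col7a1. Lower were 5 members, the minor basement membrane chains Col4a3, Col4a4 and Col4a5, the myotendinous junction gene Col22a1 and Col20a1. At an adjusted p under 0.05, 15.4% of all tested genes were higher and 11.5% lower (26.9% in either direction), against 7 of 39 members. No gene of types I, III, V or VI passed. Groups did not overlap for 3 members that were higher and 4 that were lower, where 16.8% and 13% of all genes did not overlap in those directions. The members' median log2 fold change was -0.02, that of all genes 0.01. Scaled to Tbp, where the median of all genes itself was 0.28, 8 members were higher (Col3a1, Col5a2, Col6a2 and Col6a3 among them) and 1 was lower (Col4a4), and 3 of the 7 calls remained. Without the 6 libraries with Krt14 above 1 CPM, Col4a4 was lower and Col19a1 higher, and no other member passed. Without S446, which had the highest values of types I and III among the FVB/N mice, 9 members passed, Col3a1, Col5a2, Col6a1, Col6a2 and Col6a3 among those higher, and without S445 or S459 4 passed. In the same comparison the myofibre markers Acta1 (0.31 ± 0.08, adjusted p = 0.0079) and Mb (0.79 ± 0.17, adjusted p = 0.0027) and the fibroblast marker Smoc2 (0.30 ± 0.07, adjusted p = 0.0066) were higher, all lost without the 6 libraries, and the cartilage marker Hapln1 (-0.96 ± 0.34, adjusted p = 0.05) was lower, which was lost in 19 of 27 alternatives. Endothelial, pericyte and macrophage markers are given further on. Their part in the result was not tested.

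The second comparison asked how AICAR acts in HSALR muscle. All 16 members that passed were lower after AICAR than after vehicle, and none was higher. Among all genes 13.7% were higher and 13% lower (26.6% in either direction), and the members' median log2 fold change was -0.33, that of all genes -0.02. The 16 comprised 6 of 11 fibrillar, 1 of 9 basement membrane, 2 of 4 endplate or tendon, 2 of 5 beaded filament and 5 of 10 other collagens. Groups did not overlap for 6 members, all lower, where 7.48% of all genes were lower without overlap. Without the 6 libraries in which Krt14 exceeded 1 CPM, 9 members were lower (7 of the 16, with Col15a1 and Col19a1) and none higher, and Col1a2, Col2a1, Col3a1, Col6a1, Col8a2, Col11a1, Col14a1, Col17a1 and Col28a1 lost their calls. With the epidermal marker score as a covariate 11 members were lower, 10 of the 16 and Col19a1, while Col2a1, Col8a1, Col8a2, Col14a1, Col17a1 and Col28a1 lost their calls (adjusted p = 0.14, 0.059, 0.31, 0.25, 0.84 and 0.053). By limma voom 10 members passed, all among the 16, and 9 passed without S462. Fibroblast markers moved in the same comparison, with 3 of 8 lower (Lum, Clec3b and Smoc2) and sums of 1063 to 1229 CPM after AICAR against 1213 to 1442 CPM after vehicle. With AICAR in FVB/N mice none of the 8 passed. Their sums there were 1013 to 1252 CPM after AICAR against 1278 to 1444 CPM after vehicle, without overlap. Fibroblast markers had a median log2 fold change of -0.26 in HSALR and -0.22 in FVB/N mice. Of 6 tendon markers 3 were lower (Tnmd, Fmod and Kera) and 1 higher (Scx), with the Fmod call lost without S447, S450, S451, S453, S454, S455, S458, S462 or S463 (-0.41 to -0.25, adjusted p up to 0.12) and the Kera call lost without S453, S454, S455, S458 or S462 (-0.73 to -0.46, adjusted p up to 0.063). The calls of Lum, Clec3b, Fmod and Scx were lost without the 6 libraries. With the epidermal marker score as a covariate those of Clec3b, Fmod and Kera were lost. Of 4 macrophage markers Csf1r was lower, a call lost in 13 of 28 alternatives. Tendon marker sums were 343.6 to 463.4 CPM after AICAR against 380.9 to 603 CPM after vehicle. In FVB/N mice none of the 6 tendon markers passed. Their sums there were 416 to 507.5 CPM after AICAR against 490.7 to 640.8 CPM after vehicle. Tendon markers had a median log2 fold change of -0.23 in HSALR and -0.20 in FVB/N mice. Their part in the result was not tested.

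In FVB/N mice, AICAR was compared with vehicle in the same way. Higher after AICAR were 3 members, Col4a1, Col4a2 and Col24a1, and 1 was lower, Col8a1, against 8.4% higher and 4.77% lower among all genes (13.2% in either direction). Groups did not overlap for 3 members that were higher and 6 that were lower, where 18.1% and 15% of all genes did not overlap. These 4 calls lay near the threshold (adjusted p = 0.032 to 0.048). Each was lost without 1 or another mouse, while its direction held without any single mouse. Those of Col4a2 and Col24a1 were lost also without single HSALR mice, which are not in this comparison. No member passed without S445, S448 or S449. Without S447 only Col4a1 passed, and without S450 only Col4a4 (-0.64, adjusted p = 0.048). Without the 6 libraries with Krt14 above 1 CPM no member passed, and their log2 fold changes were 0.49 for Col4a1, 0.38 for Col4a2, 0.93 for Col24a1 and -0.57 for Col8a1.

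The genotypes were also compared after AICAR. Lower in HSALR mice were 7 members, the fibrillar genes Col11a1, Col11a2 and Col2a1 and the basement membrane chains Col4a3, Col4a4, Col4a5 and Col4a6, and Col7a1 was higher. Among all genes 12.2% were higher and 9.64% lower (21.8% in either direction). Groups did not overlap for 15 members that were lower and for 1 that was higher, where 11.6% and 15% of all genes did not overlap. The members' median log2 fold change was -0.28, that of all genes 0.00. DESeq2 called 13 members and a fit of only these groups 17, with the same 8 among them in each case, and 12 members passed without S450. Without the 6 libraries with Krt14 above 1 CPM 8 members passed, 7 of them the same. Col4a3, Col4a4, Col4a5 and Col7a1 passed in both genotype comparisons, which share no mice. Markers of other cells moved between genotypes after AICAR as well. Of 5 myofibre markers Acta1 (0.46 ± 0.08, adjusted p = 8e-04) and Mb (1.18 ± 0.17, adjusted p = 0.00022) were higher in HSALR mice and Myh4 (-0.67 ± 0.18, adjusted p = 0.018) lower, the last lost without S449 (-0.80 to -0.40, adjusted p up to 0.13), with sums of 96280 to 114600 CPM against 104600 to 142800 CPM. Of 6 tendon markers Scx (1.55 ± 0.24, adjusted p = 0.00041) was higher, with sums of 343.6 to 463.4 CPM against 416 to 507.5 CPM. Of 8 epidermal markers 5 were lower, all lost without S448, the AICAR FVB/N mouse with Krt14 above 1 CPM, or without any one AICAR HSALR mouse. Endothelial and pericyte markers are given with type IV collagen. The part of these cells in the result was not tested.

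Whether the response to AICAR differed between genotypes was tested as an interaction. No member passed by edgeR, DESeq2 or limma voom, and 0.691% of all genes did by edgeR (0.207% above and 0.484% below 0). At an unadjusted p under 0.05 there were 7 members, Col3a1, Col11a1, Col24a1, Col6a2, Col6a3, Col16a1 and Col17a1, with adjusted p of 0.24 to 0.32, where 15% of all genes were under that p. The interaction of Col3a1, for example, was log2 fold change -0.81 ± 0.34 SE, adjusted p = 0.28 (95% interval -1.54 to -0.08). All 11 fibrillar genes had an interaction below 0 (median -0.50), as had 31 of the 39 members (median -0.35), where 51.6% of all genes lay below 0 (median -0.01). Each comparison shares its groups with 2 others. Both responses to AICAR are therefore given for each member that passed in either, and a call in 1 genotype alone is not shown to differ from the other.

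**Figure D2:**
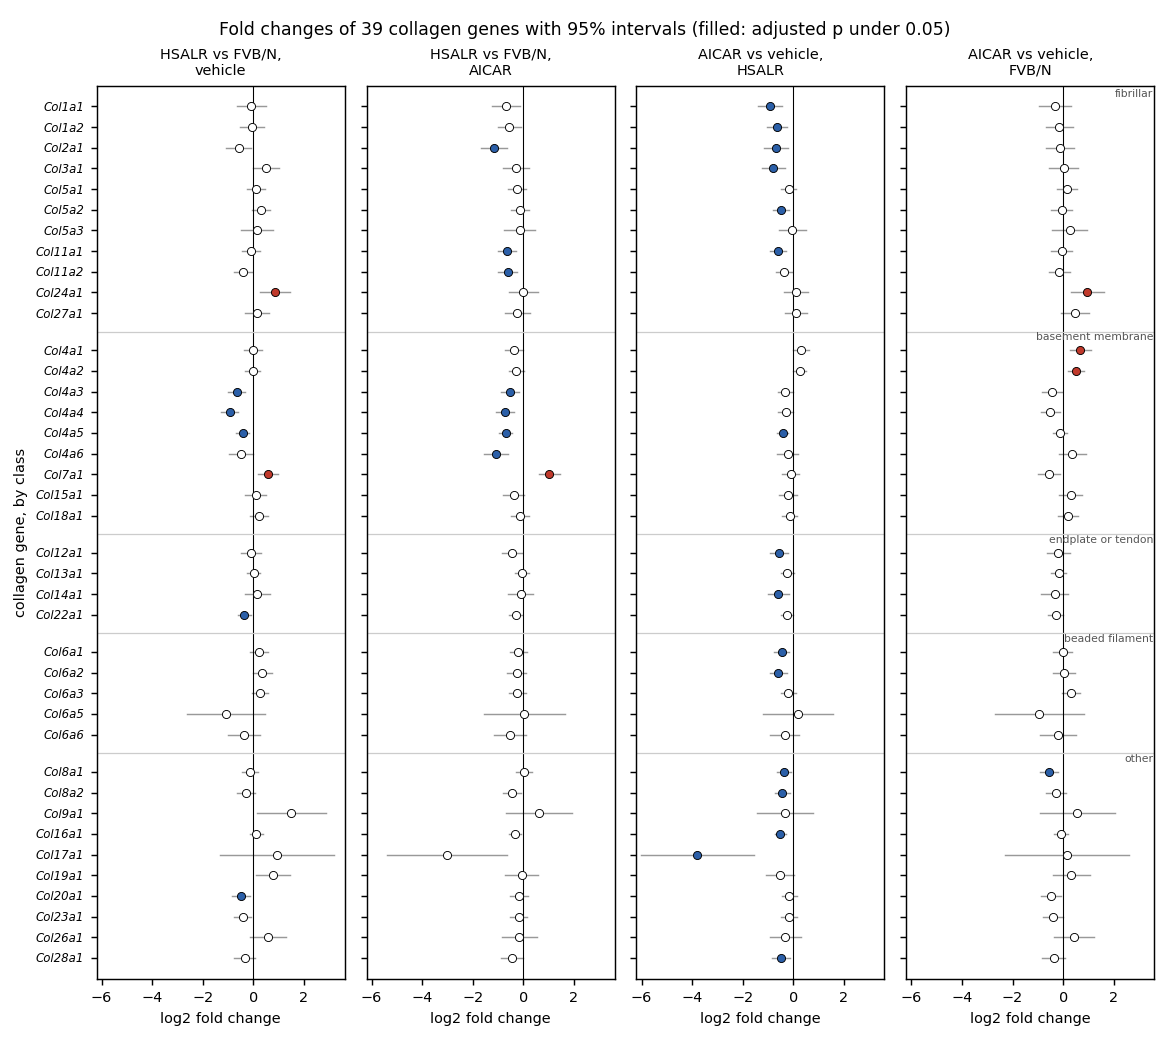
Log2 fold changes (horizontal axis, with 95% intervals) of the 39 collagen genes, grouped by class on the vertical axis, in the comparisons of genotype after vehicle, genotype after AICAR, AICAR in HSALR mice and AICAR in FVB/N mice. Filled points had an adjusted p under 0.05; in the panel of AICAR in HSALR mice all 16 filled points lie left of 0, from -0.38 for Col8a1 to -3.80 for Col17a1.

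Among the fibrillar collagens, the abundant chains of types I and III were lower in HSALR mice after AICAR and did not pass in any other comparison. Col1a1 (chr11:94936224-94953042) encodes the α1 chain of type I collagen, the main fibril protein of tendon and perimysium. Col1a1 stood at 179.8, 349 and 129 CPM in the vehicle FVB/N mice and at 173, 194 and 162 CPM in the AICAR FVB/N mice. For Col1a1 in HSALR mice, the values were 259, 155, 212, 249 and 162 CPM after vehicle and 107, 150.4, 100.02, 86.4 and 103 CPM after AICAR. All AICAR HSALR mice lay below all vehicle HSALR mice, log2 fold change -0.92 ± 0.23 SE, adjusted p = 0.0085, 1.90-fold lower on average. In FVB/N mice S446 was high and S450 low after vehicle, and the groups overlapped (AICAR against vehicle, -0.32 ± 0.30, adjusted p = 0.52).

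Col1a2 (chr6:4505618-4541543), the gene of the other type I chain, followed the same order. Col1a2 stood at 345, 591 and 255 CPM in the vehicle FVB/N mice and at 355, 402 and 316 CPM in the AICAR FVB/N mice. For Col1a2 in HSALR mice, the values were 443, 300.5, 389, 468 and 314 CPM after vehicle and 247, 300.1, 238, 204 and 228 CPM after AICAR. The AICAR HSALR mice again lay below the vehicle HSALR mice, S455 being the highest of the former at 300.1 CPM and S452 the lowest of the latter at 300.5 CPM. The difference was log2 fold change -0.65 ± 0.19 SE, adjusted p = 0.019, against -0.15 ± 0.24, adjusted p = 0.74 in FVB/N mice. The call was lost without the 6 libraries with Krt14 above 1 CPM (-0.87), where Col1a1 stood at -1.24. S451, the only vehicle HSALR mouse left there, was the highest of its group for Col1a1. The Col1a1 to Col1a2 count ratio was 0.539 ± 0.0277 (SD) in vehicle and 0.447 ± 0.0332 in AICAR HSALR mice, with ranges of 0.515 to 0.584 and 0.420 to 0.501.

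Col3a1 (chr1:45311538-45349706) encodes the chain of type III collagen, the fine fibrils of the endomysium. Col3a1 stood at 275, 429.9 and 183 CPM in the vehicle FVB/N mice and at 296, 316 and 290.2 CPM in the AICAR FVB/N mice. For Col3a1 in HSALR mice, the values were 530.4, 391, 453.3, 381 and 342 CPM after vehicle and 244, 364, 226, 190.0 and 189 CPM after AICAR. Vehicle HSALR mice had the highest mean, and S455 alone of the AICAR HSALR mice reached into their range. Col3a1 was 1.73-fold lower after AICAR in HSALR mice (log2 fold change -0.79 ± 0.21 SE, adjusted p = 0.013), while the value in FVB/N mice was 0.02 ± 0.27, adjusted p = 0.97. The HSALR call was lost without the 6 libraries with Krt14 above 1 CPM (-1.13, adjusted p = 0.06). After vehicle Col3a1 did not pass between genotypes (0.50 ± 0.25, adjusted p = 0.15), with S446 far above the other vehicle FVB/N mice, and without S446 it did (0.87, adjusted p = 0.02). S446 also had the highest tendon marker sum of all mice, 640.8 CPM. The count ratio of Col3a1 to Col1a1 was 1.23 to 1.53 in vehicle FVB/N, 1.63 to 1.79 in AICAR FVB/N, 1.53 to 2.51 in vehicle HSALR and 1.83 to 2.42 in AICAR HSALR mice, so that every AICAR HSALR mouse lay above every FVB/N mouse.

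**Figure D3:**
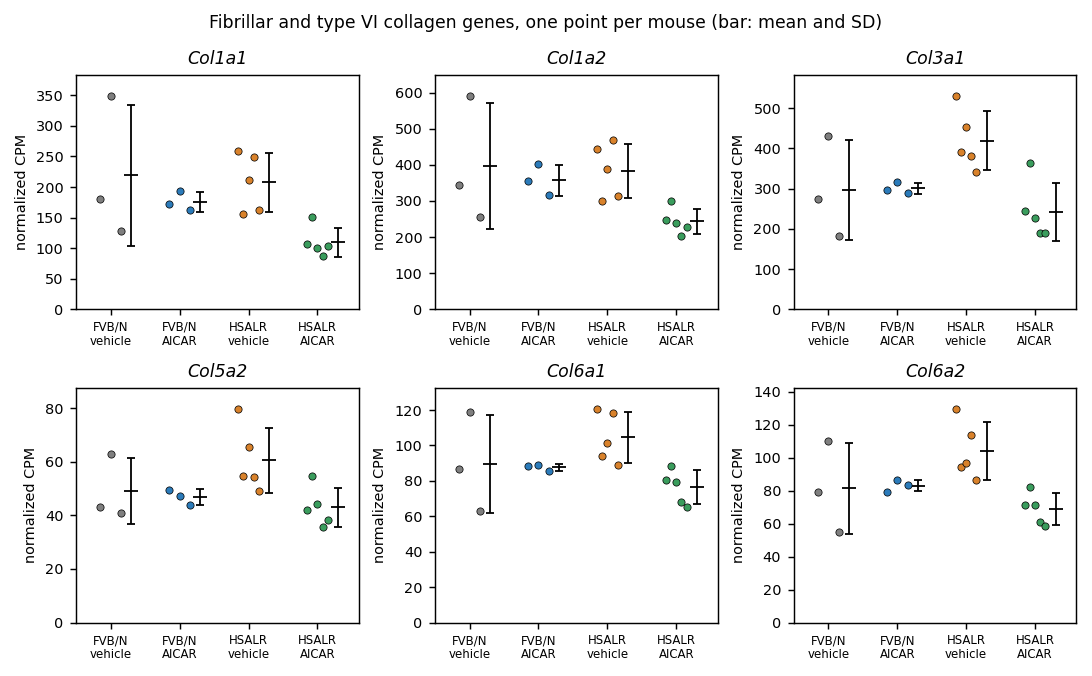
Normalized CPM (vertical axis) of Col1a1, Col1a2, Col3a1, Col5a2, Col6a1 and Col6a2 in each mouse (points), with group mean and SD (bars). In the Col1a1 panel the AICAR HSALR mice (86.4 to 150.4 CPM) lie below the vehicle HSALR mice (155 to 259 CPM), and S446 stands highest among the FVB/N mice at 349 CPM.

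Of the type V chains, which sit inside type I fibrils and set their width, Col5a2 passed a test and Col5a1 and Col5a3 did not. Col5a2 fell in AICAR HSALR mice (log2 fold change -0.49 ± 0.15 SE, adjusted p = 0.022), from 49.1 to 79.6 CPM after vehicle to 35.8 to 54.6 CPM after AICAR. For Col5a1 the value was -0.19 ± 0.14, adjusted p = 0.37 and for Col5a3 -0.04 ± 0.25, adjusted p = 0.92, and these differences from Col5a2 were not tested. For Col5a2 AICAR gave -0.06 ± 0.19, adjusted p = 0.87 in FVB/N mice. Col5a3 spread most among vehicle HSALR mice, from 19.9 CPM in S458 to 62.9 CPM in S451. Col5a2 lost its call without S451, S453, S462 or S463 (-0.60 to -0.37, adjusted p up to 0.059 over all mice left out in turn).

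The type XI and type II chains, best known from cartilage, were lowest in AICAR HSALR mice. Col11a1 was log2 fold change -0.60 ± 0.15 SE, adjusted p = 0.0081 with AICAR in HSALR mice and -0.64 ± 0.17, adjusted p = 0.014 between genotypes after AICAR, and neither passed without the 6 libraries with Krt14 above 1 CPM (-0.85, adjusted p = 0.069 and -0.57, adjusted p = 0.07). With AICAR in FVB/N mice it was -0.07 ± 0.19, adjusted p = 0.86. Its values were 4.43 to 6.27 CPM in AICAR HSALR mice, 6.00 to 9.38 CPM in vehicle HSALR mice, 7.62 to 8.87 CPM in AICAR FVB/N mice and 6.66 to 10.9 CPM in vehicle FVB/N mice. Col11a2 passed only between genotypes after AICAR (log2 fold change -0.62 ± 0.17 SE, adjusted p = 0.019), and both type XI calls were lost there without S448 (-0.57, adjusted p = 0.058 and -0.58, adjusted p = 0.063). Col2a1, near the limit of the rule, is the chain of type II collagen. Col2a1 stood at 0.797, 1.1604 and 0.584 CPM in the vehicle FVB/N mice and at 0.711, 0.982 and 0.630 CPM in the AICAR FVB/N mice. For Col2a1 in HSALR mice, the values were 0.557, 0.421, 0.712, 0.633 and 0.506 CPM after vehicle and 0.288, 0.347, 0.427, 0.351 and 0.336 CPM after AICAR. No AICAR HSALR mouse reached the FVB/N mice given AICAR (log2 fold change -1.14 ± 0.24 SE, adjusted p = 0.0038), and the AICAR difference was -0.69 ± 0.22, adjusted p = 0.029 within HSALR mice and -0.13 ± 0.27, adjusted p = 0.8 within FVB/N mice. The call with AICAR within HSALR mice was lost without S453, S454, S455, S458, S462 or S463 (-0.78 to -0.60, adjusted p up to 0.075). It was also lost by limma voom, with the epidermal marker score as a covariate and without the 6 libraries (-0.67). Of 4 cartilage markers 2 were tested, and the sum over the list was 1.26 to 3.80 CPM in AICAR and 2.67 to 4.54 CPM in vehicle HSALR mice. Sox9, a regulator of cartilage genes, was lower after AICAR in HSALR mice (-0.87 ± 0.27, adjusted p = 0.026). The Sox9 call was lost without S452, S453, S454, S455, S462 or S463 (-1.21 to -0.73, adjusted p up to 0.065). It was also lost with the epidermal marker score as a covariate and without the 6 libraries. The part of cartilage cells in these results was not tested.

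Col24a1 (chr3:145292472-145552013), a minor fibrillar collagen, had its lowest values in vehicle FVB/N mice. Col24a1 stood at 6.23, 6.11 and 4.57 CPM in the vehicle FVB/N mice and at 11.7, 9.13 and 11.9 CPM in the AICAR FVB/N mice. For Col24a1 in HSALR mice, the values were 9.89, 7.33, 7.46, 15.6 and 10.4 CPM after vehicle and 8.52, 7.85, 10.8, 10.1 and 17.6 CPM after AICAR. The vehicle FVB/N mice were lowest, all under 6.3 CPM, and no mouse of another group reached down to them. Col24a1 was higher in vehicle HSALR than in vehicle FVB/N mice (log2 fold change 0.85 ± 0.27 SE, adjusted p = 0.032) and higher after AICAR in FVB/N mice (log2 fold change 0.95 ± 0.30 SE, adjusted p = 0.048), comparisons that share the vehicle FVB/N mice. Between genotypes after AICAR the difference was 0.00 (95% interval -0.56 to 0.56), and in HSALR mice AICAR gave 0.11 ± 0.23, adjusted p = 0.76. The genotype call after vehicle was lost without S445, S446, S450, S458 or S459 (0.64 to 0.94, adjusted p up to 0.12). The AICAR call in FVB/N mice was lost in 17 of 28 alternatives, namely without S445, S446, S447, S448, S449, S450, S451, S454, S459, S460 or S462 (0.82 to 1.06, adjusted p up to 0.15), without the 6 libraries with Krt14 above 1 CPM, by limma voom, with robust dispersion, with no filter on low counts, with library totals only and with upper-quartile scaling. Col27a1, another minor fibrillar gene, passed in no comparison.

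In the basement membrane class, the widespread type IV chains Col4a1 and Col4a2 were higher after AICAR in FVB/N mice, while the restricted chains Col4a3, Col4a4, Col4a5 and Col4a6 were lower in HSALR than in FVB/N mice after AICAR. Col4a1 and Col4a2 lie head to head on chromosome 8 and encode the chains found in nearly all basement membranes. Col4a1 stood at 155, 180.5 and 117 CPM in the vehicle FVB/N mice and at 224, 244 and 251 CPM in the AICAR FVB/N mice. For Col4a1 in HSALR mice, the values were 214, 141, 148, 129 and 115 CPM after vehicle and 213, 190.5, 189, 161 and 169 CPM after AICAR. Every AICAR FVB/N mouse lay above every vehicle FVB/N mouse (log2 fold change 0.67 ± 0.19 SE, adjusted p = 0.032), and in HSALR mice the groups overlapped (0.31 ± 0.15, adjusted p = 0.15). S451 was the highest vehicle HSALR mouse at 214 CPM, and without it the HSALR difference passed too (0.47, adjusted p = 0.0096). In the absence of the 6 libraries with Krt14 above 1 CPM, which leaves S451 as the only vehicle HSALR mouse, the HSALR difference turned below 0 (-0.22, adjusted p = 0.42).

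Col4a2 followed Col4a1. Col4a2 stood at 113, 118 and 86.8 CPM in the vehicle FVB/N mice and at 144, 150.3 and 157 CPM in the AICAR FVB/N mice. For Col4a2 in HSALR mice, the values were 141, 100.4, 104, 89.2 and 85.6 CPM after vehicle and 141, 120.5, 125, 114 and 121 CPM after AICAR. It passed in FVB/N mice (log2 fold change 0.51 ± 0.15 SE, adjusted p = 0.04) and not in HSALR mice (0.26 ± 0.12, adjusted p = 0.13), where it passed without S451 (0.39, adjusted p = 0.0073) and turned below 0 without the 6 libraries with Krt14 above 1 CPM (-0.18, adjusted p = 0.37). Leaving out mice in turn, Col4a1 lost its FVB/N call without S445, S448, S449 or S450 (0.52 to 0.82, adjusted p up to 0.12). Col4a2 lost its own without S445, S447, S448, S449, S450, S452 or S453 (0.39 to 0.60, adjusted p up to 0.15). Both FVB/N calls were also lost with library totals only, and that of Col4a2 with upper-quartile scaling. Since the 2 genes overlap at their starts and it is not stated whether counting used the strand, reads in the shared bases may have been given to either.

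Col4a3 and Col4a4 form a second head-to-head pair, on chromosome 1, and with Col4a5 make the chains of kidney and other specialised basement membranes. Col4a4 stood at 2.32, 2.93 and 1.96 CPM in the vehicle FVB/N mice and at 1.91, 1.43 and 1.72 CPM in the AICAR FVB/N mice. For Col4a4 in HSALR mice, the values were 1.27, 1.05, 1.44, 1.34 and 1.19 CPM after vehicle and 0.987, 1.05, 1.17, 1.08 and 0.795 CPM after AICAR. Every HSALR mouse lay below every FVB/N mouse given the same treatment. Col4a4 was lower in HSALR than in FVB/N mice after vehicle (log2 fold change -0.94 ± 0.16 SE, adjusted p = 0.00055) and after AICAR (log2 fold change -0.73 ± 0.16 SE, adjusted p = 0.0056), calls that held under every alternative listed in the closing section and without any single mouse. Within genotypes the AICAR differences were -0.30 ± 0.14, adjusted p = 0.14 in HSALR and -0.51 ± 0.18, adjusted p = 0.074 in FVB/N mice.

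Col4a3 stood at 2.08, 2.26 and 1.97 CPM in the vehicle FVB/N mice and at 1.78, 1.20 and 1.63 CPM in the AICAR FVB/N mice. For Col4a3 in HSALR mice, the values were 1.29, 1.02, 1.39, 1.18 and 1.72 CPM after vehicle and 1.04, 0.941, 1.17, 1.08 and 1.09 CPM after AICAR. Every HSALR mouse again lay below every FVB/N mouse given the same treatment. Col4a3 was lower in HSALR mice after vehicle (log2 fold change -0.67 ± 0.16 SE, adjusted p = 0.0067) and after AICAR (-0.53 ± 0.17, adjusted p = 0.032), the latter call being lost without S447, S449, S454, S455, S462 or S463 (-0.68 to -0.41, adjusted p up to 0.15). Scaled to Tbp neither Col4a3 call passed (-0.39, adjusted p = 0.17 after vehicle and -0.57, adjusted p = 0.11 after AICAR), nor did the one after vehicle without the 6 libraries (-0.75, adjusted p = 0.078). Reads in the bases that Col4a3 and Col4a4 share may likewise have been given to either.

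Col4a5 and Col4a6 lie side by side on the X chromosome. Col4a5 stood at 6.66, 7.84 and 6.33 CPM in the vehicle FVB/N mice and at 6.26, 5.85 and 6.72 CPM in the AICAR FVB/N mice. For Col4a5 in HSALR mice, the values were 6.14, 5.10, 5.08, 4.15 and 5.38 CPM after vehicle and 3.47, 4.04, 4.45, 3.67 and 3.70 CPM after AICAR. The AICAR HSALR mice were lowest, and all of them lay below all FVB/N mice. Col4a5 was lower in HSALR mice after vehicle (log2 fold change -0.43 ± 0.12 SE, adjusted p = 0.014; without S446 -0.33, adjusted p = 0.084; scaled to Tbp -0.16, adjusted p = 0.5) and after AICAR (-0.70 ± 0.12, adjusted p = 0.00069), and lower after AICAR in HSALR mice (-0.42 ± 0.10, adjusted p = 0.0078), where FVB/N mice gave -0.15 ± 0.13, adjusted p = 0.5.

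Col4a6 stood at 0.910, 0.778 and 0.788 CPM in the vehicle FVB/N mice and at 0.995, 0.877 and 1.30 CPM in the AICAR FVB/N mice. For Col4a6 in HSALR mice, the values were 0.390, 0.544, 0.667, 0.524 and 0.800 CPM after vehicle and 0.535, 0.569, 0.583, 0.391 and 0.413 CPM after AICAR. Per kb, Col4a6 was the lowest member over all mice together, but not within either AICAR group. Col4a6 was lower in HSALR than in FVB/N mice after AICAR, where the groups did not overlap (log2 fold change -1.08 ± 0.22 SE, adjusted p = 0.0032). It did not pass after vehicle (-0.50 ± 0.22, adjusted p = 0.12). Together Col4a3, Col4a4, Col4a5 and Col4a6 made up 4.28 to 5.14% of all type IV counts in vehicle FVB/N mice and 2.32 to 2.88% in AICAR FVB/N mice. In HSALR mice they made up 2.497 to 4.35% after vehicle and 1.67 to 2.30% after AICAR. The share was thus lower after AICAR in each genotype without overlap. Endothelial markers, of cells that also make type IV collagen, were lower in vehicle HSALR than in vehicle FVB/N mice for 5 of 5 genes (log2 fold change -0.47 to -0.60), with sums of 170.1 to 219 CPM against 259 to 285 CPM. Scaled to Tbp 4 of these calls were lost, all but that of Emcn, and without the 6 libraries with Krt14 above 1 CPM all 5 were. Of pericyte and smooth muscle markers 3 of 4 were lower (Pdgfrb, Rgs5 and Myh11), of which Pdgfrb was at 0.00499 when scaled to Tbp. The calls of Pdgfrb and Rgs5 were lost when scaled to Tbp and without the 6 libraries. Leaving out mice in turn, the Pdgfrb call after vehicle was lost without S445 or S453 (-0.33 to -0.19, adjusted p up to 0.16) and that of Rgs5 lost without S445 or S450 (-0.38 to -0.26, adjusted p up to 0.061). Between genotypes after AICAR, 2 of 5 endothelial markers (Pecam1 and Cdh5) and 3 of 4 pericyte and smooth muscle markers (Rgs5, Pdgfrb and Myh11) were lower in HSALR mice, the Pdgfrb call lost without S446, S448, S449, S453, S455, S458, S459, S460, S462 or S463 (-0.30 to -0.18, adjusted p up to 0.19), that of Rgs5 lost without S447 or S448 (-0.32 to -0.24, adjusted p up to 0.098) and that of Myh11 lost without S447 (-0.62 to -0.38, adjusted p up to 0.057). After AICAR the Pdgfrb and Rgs5 calls were also lost without the 6 libraries, and that of Pdgfrb when scaled to Tbp. The part of these cells in the genotype differences was not tested.

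**Figure D4:**
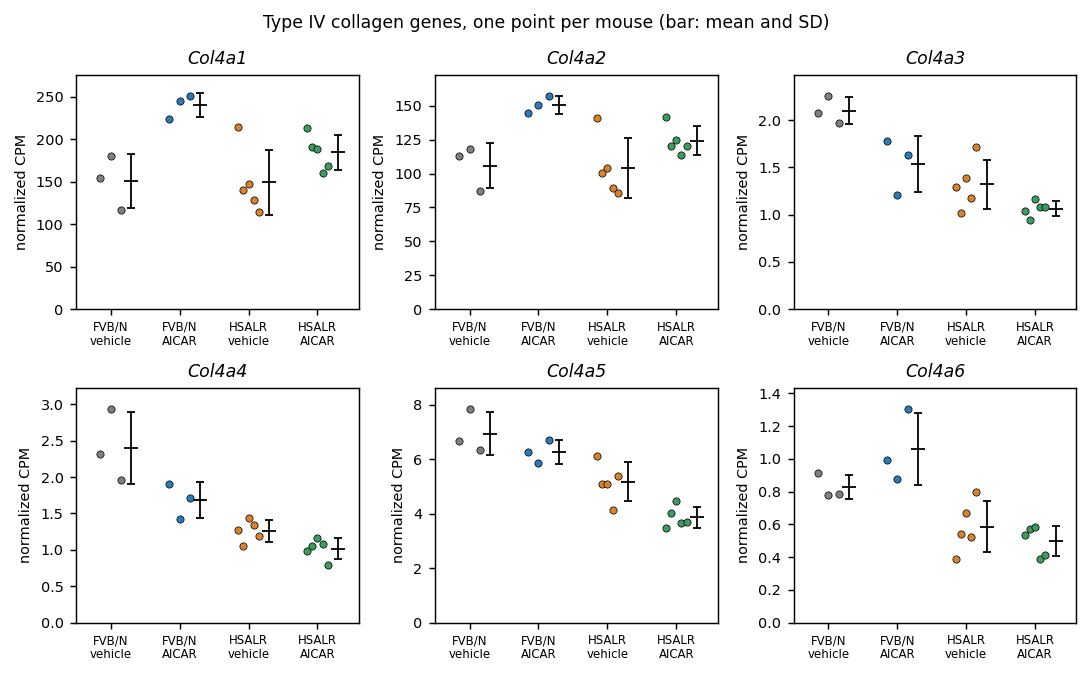
Normalized CPM (vertical axis) of the 6 type IV collagen genes in each mouse (points), with group mean and SD (bars). Col4a1 is highest in AICAR FVB/N mice (224 to 251 CPM), while Col4a4 lies at 0.795 to 1.44 CPM in HSALR mice and at 1.43 to 2.93 CPM in FVB/N mice.

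Col7a1 (chr9:108953586-108984875), the anchoring fibril collagen of skin and a few other linings, was the member higher in HSALR mice in both comparisons of genotype. Col7a1 stood at 6.46, 7.70 and 5.72 CPM in the vehicle FVB/N mice and at 3.71, 4.29 and 5.43 CPM in the AICAR FVB/N mice. For Col7a1 in HSALR mice, the values were 11.9, 8.36, 8.83, 9.90 and 10.1 CPM after vehicle and 9.02, 6.05, 11.9, 8.32 and 10.2 CPM after AICAR. No HSALR mouse lay below an FVB/N mouse given the same treatment. The difference was log2 fold change 0.57 ± 0.19 SE, adjusted p = 0.036 after vehicle and 1.02 ± 0.19, adjusted p = 0.0018 after AICAR, the latter being 2.03-fold. AICAR against vehicle gave -0.11 ± 0.16, adjusted p = 0.65 in HSALR mice and -0.57 ± 0.21, adjusted p = 0.089 in FVB/N mice. The call after vehicle was lost without S445, S450, S451, S458 or S459 (0.47 to 0.69, adjusted p up to 0.14), that after AICAR in none. Col15a1 and Col18a1, basement membrane collagens that bear heparan or chondroitin sulfate, passed in no comparison.

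Of the 4 endplate or tendon collagens, Col22a1, Col12a1 and Col14a1 each passed in 1 comparison and Col13a1 in none. Col13a1, a transmembrane collagen that keeps the endplate in place, lay between 1.29 and 2.00 CPM in all 16 mice and passed in no comparison. Its difference between genotypes was 0.00 after vehicle (95% interval -0.27 to 0.28) and -0.04 after AICAR (95% interval -0.32 to 0.23). Colq, which anchors acetylcholinesterase at the endplate by a collagen tail and is outside the rule by its name, passed in none either. Its means were 15.2 CPM in vehicle FVB/N, 9.90 in AICAR FVB/N, 11.4 in vehicle HSALR and 8.35 in AICAR HSALR mice, and the vehicle FVB/N mouse S450 stood at 22.6 CPM.

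Col22a1 marks the myotendinous junction. Col22a1 stood at 28.9, 35.2 and 28.2 CPM in the vehicle FVB/N mice and at 21.8, 23.5 and 29.4 CPM in the AICAR FVB/N mice. For Col22a1 in HSALR mice, the values were 26.0, 20.1, 24.5, 24.4 and 24.3 CPM after vehicle and 19.4, 16.2, 23.1, 19.7 and 22.4 CPM after AICAR. Vehicle FVB/N mice had the highest mean and lay above all vehicle HSALR mice (log2 fold change -0.37 ± 0.12 SE, adjusted p = 0.036). The call was lost without S445, S446, S452, S453 or S459 (-0.43 to -0.26, adjusted p up to 0.19). It was also lost when scaled to Tbp, with the epidermal marker score as a covariate and without the 6 libraries. After AICAR the genotypes overlapped (-0.30 ± 0.12, adjusted p = 0.087).

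Col12a1 and Col14a1 coat fibril surfaces in tendon and perimysium. Col12a1 stood at 25.0, 33.4 and 29.5 CPM in the vehicle FVB/N mice and at 22.9, 26.8 and 26.3 CPM in the AICAR FVB/N mice. For Col12a1 in HSALR mice, the values were 42.0, 23.8, 25.7, 26.9 and 19.1 CPM after vehicle and 17.4, 15.7, 22.4, 17.5 and 20.5 CPM after AICAR. Col12a1 was lower after AICAR in HSALR mice (log2 fold change -0.56 ± 0.17 SE, adjusted p = 0.022) with overlap between the groups, a call lost without S454 or S455 (-0.66 to -0.35, adjusted p up to 0.057). S451 alone exceeded 27 CPM among the vehicle HSALR mice. Col14a1 stood at 23.4, 39.7 and 28.9 CPM in the vehicle FVB/N mice and at 28.1, 22.9 and 21.5 CPM in the AICAR FVB/N mice. For Col14a1 in HSALR mice, the values were 25.7, 22.4, 42.6, 44.7 and 34.6 CPM after vehicle and 18.5, 31.0, 20.7, 20.6 and 21.7 CPM after AICAR. Among AICAR HSALR mice S455 was high for Col14a1, and the groups overlapped. Col14a1 passed with AICAR in HSALR mice (log2 fold change -0.60 ± 0.20 SE, adjusted p = 0.038) and lost that call without S453, S454, S458, S459, S460, S462 or S463 (-0.74 to -0.48, adjusted p up to 0.098), with the epidermal marker score as a covariate (-0.49, adjusted p = 0.25) and without the 6 libraries with Krt14 above 1 CPM (-0.19, adjusted p = 0.76). The differences with AICAR in FVB/N mice were -0.21 ± 0.21, adjusted p = 0.57 for Col12a1 and -0.34 ± 0.26, adjusted p = 0.41 for Col14a1.

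Type VI collagen, whose loss causes congenital muscular dystrophy, is built from Col6a1, Col6a2 and one more chain such as Col6a3. Col6a2 stood at 78.9, 109.9 and 55.1 CPM in the vehicle FVB/N mice and at 79.3, 86.2 and 83.6 CPM in the AICAR FVB/N mice. For Col6a2 in HSALR mice, the values were 129, 94.2, 96.6, 114 and 86.3 CPM after vehicle and 71.1, 82.1, 71.5, 61.0 and 58.6 CPM after AICAR. All AICAR HSALR mice lay below all vehicle HSALR mice (log2 fold change -0.60 ± 0.15 SE, adjusted p = 0.01). Col6a1 stood at 86.9, 119 and 63.0 CPM in the vehicle FVB/N mice and at 88.4, 88.8 and 85.5 CPM in the AICAR FVB/N mice. For Col6a1 in HSALR mice, the values were 120.5, 94.0, 101, 118 and 88.7 CPM after vehicle and 80.3, 88.6, 79.4, 68.0 and 65.2 CPM after AICAR. The AICAR HSALR mice again lay below the vehicle HSALR mice (log2 fold change -0.46 ± 0.14 SE, adjusted p = 0.025). S455 at 88.6 CPM came close to S459 at 88.7 CPM. The Col6a1 call was lost without S451, S458, S462 or S463 (-0.51 to -0.40, adjusted p up to 0.062). It was also lost without the 6 libraries with Krt14 above 1 CPM (-0.66), where Col6a2 stood at -0.91. S451, the only vehicle HSALR mouse left there, was the highest of its group for both genes. With AICAR in FVB/N mice the differences were -0.03 ± 0.18, adjusted p = 0.94 for Col6a1 and 0.03 ± 0.20, adjusted p = 0.95 for Col6a2.

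Col6a3 stood at 79.1, 108 and 59.5 CPM in the vehicle FVB/N mice and at 92.1, 100.4 and 113 CPM in the AICAR FVB/N mice. For Col6a3 in HSALR mice, the values were 124, 91.8, 94.96, 96.6 and 83.9 CPM after vehicle and 85.6, 88.3, 97.4, 76.9 and 82.4 CPM after AICAR. Col6a3 did not pass with AICAR in HSALR mice, where the groups overlapped (-0.19 ± 0.13, adjusted p = 0.32), nor in FVB/N mice (0.31 ± 0.17, adjusted p = 0.26). The count ratio of Col6a3 to Col6a1 was 0.942 ± 0.0795 (SD) in vehicle and 1.14 ± 0.111 in AICAR HSALR mice, and 0.921 ± 0.0198 and 1.1631 ± 0.141 in vehicle and AICAR FVB/N mice. Col6a5 and Col6a6, alternatives to Col6a3 in skin and lung, passed in no comparison. Col6a5 stood at 0.953, 3.88 and 0.557 CPM in the vehicle FVB/N mice and at 0.896, 0.890 and 1.00 CPM in the AICAR FVB/N mice. For Col6a5 in HSALR mice, the values were 0.348, 0.313, 0.504, 2.47 and 0.560 CPM after vehicle and 0.535, 1.84, 0.398, 1.54 and 0.444 CPM after AICAR. S446, S458, S455 and S462 were the highest mice for Col6a5, while the AICAR FVB/N mice lay close together. Col6a6 stood at 3.34, 6.95 and 2.49 CPM in the vehicle FVB/N mice and at 4.05, 2.63 and 4.40 CPM in the AICAR FVB/N mice. For Col6a6 in HSALR mice, the values were 2.07, 2.83, 3.57, 3.31 and 4.48 CPM after vehicle and 2.32, 3.39, 2.60, 1.97 and 2.49 CPM after AICAR. For Col6a6 S446 was the highest mouse, and all groups overlapped.

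Among the other collagens, Col17a1 ranged from 0.261 to 15.9 CPM over the 16 mice. It encodes the hemidesmosome collagen that ties basal keratinocytes to their membrane. Col17a1 stood at 0.541, 0.548 and 7.87 CPM in the vehicle FVB/N mice and at 0.697, 8.57 and 0.530 CPM in the AICAR FVB/N mice. For Col17a1 in HSALR mice, the values were 0.557, 2.76, 15.9, 2.40 and 6.73 CPM after vehicle and 0.261, 0.446, 0.413, 0.364 and 0.551 CPM after AICAR. The same 6 libraries with Krt14 above 1 CPM held 2.40 to 15.9 CPM of Col17a1, and the other 10 held 0.261 to 0.697 CPM. In HSALR mice Col17a1 was lower after AICAR (log2 fold change -3.80 ± 1.05 SE, adjusted p = 0.015), and in FVB/N mice the difference was 0.14 ± 1.15, adjusted p = 0.96. All 8 epidermal markers were lower with it, their sums being 0.242 to 0.371 CPM after AICAR and 0.612 to 187 CPM after vehicle, and Krt14 was at 0 in 3 of the 5 AICAR HSALR mice. Only Lor, Dsg1a and Krtdap of the 8 passed the filter on low counts without the 6 libraries, at -1.05, adjusted p = 0.79, -6.49, adjusted p = 0.11 and 0.54, adjusted p = 0.61. Without the 6 libraries the difference of Col17a1 was -0.46, adjusted p = 0.51, and with the epidermal marker score as a covariate -0.12, adjusted p = 0.84.

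**Figure D5:**
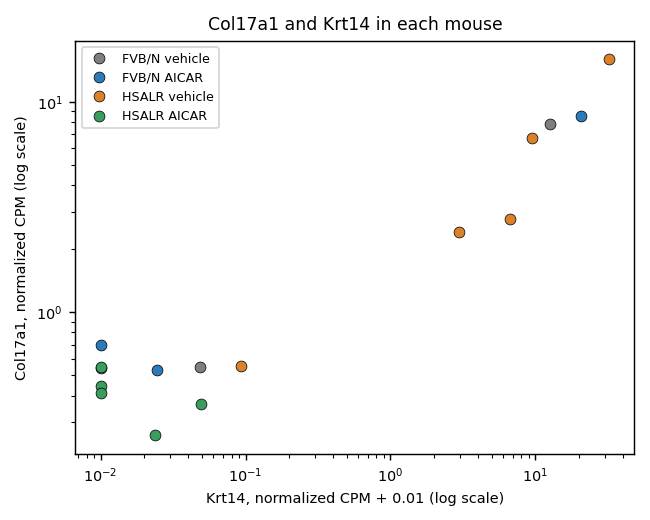
Col17a1 (vertical axis) against Krt14 plus 0.01 (horizontal axis), both in normalized CPM on log scales, 1 point per mouse and coloured by group. The 6 mice with Krt14 above 1 CPM hold Col17a1 at 2.40 to 15.9 CPM, and no AICAR HSALR mouse is among them.

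Col16a1, a fibril-associated collagen, had the smallest adjusted p of the members in the comparison of AICAR in HSALR mice. Col16a1 stood at 13.7, 18.8 and 14.5 CPM in the vehicle FVB/N mice and at 14.5, 16.3 and 13.7 CPM in the AICAR FVB/N mice. For Col16a1 in HSALR mice, the values were 19.4, 14.4, 17.5, 18.9 and 14.4 CPM after vehicle and 11.6, 13.0, 11.1, 11.3 and 12.0 CPM after AICAR. All AICAR HSALR mice lay below all vehicle HSALR mice (log2 fold change -0.52 ± 0.10 SE, adjusted p = 0.002). Without the 6 libraries with Krt14 above 1 CPM the difference was -0.72. S451, the only vehicle HSALR mouse left there, was the highest of its group at 19.4 CPM. In FVB/N mice the difference was -0.08 ± 0.13, adjusted p = 0.74.

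Col8a1 and Col8a2 encode the short-chain collagen of vessel walls and of the cornea. Col8a1 stood at 13.9, 14.9 and 15.2 CPM in the vehicle FVB/N mice and at 9.90, 10.3 and 9.65 CPM in the AICAR FVB/N mice. For Col8a1 in HSALR mice, the values were 18.5, 12.0, 13.9, 11.9 and 10.5 CPM after vehicle and 11.7, 11.8, 9.20, 8.67 and 9.80 CPM after AICAR. Col8a1 was the only member lower after AICAR in both genotypes, log2 fold change -0.38 ± 0.13 SE, adjusted p = 0.039 in HSALR mice and -0.56 ± 0.17, adjusted p = 0.039 in FVB/N mice. The HSALR call was lost without S451, S453, S460, S462 or S463 (-0.46 to -0.23, adjusted p up to 0.096). The FVB/N call was lost without S445, S446, S447, S448, S449 or S450 (-0.60 to -0.53, adjusted p up to 0.11) and when scaled to Tbp. Col8a2 was lower after AICAR in HSALR mice (log2 fold change -0.43 ± 0.15 SE, adjusted p = 0.041). It stood at 5.55 to 6.72 CPM against 6.27 to 11.4 CPM after vehicle. The Col8a2 call was lost without S453, S454, S455, S458, S460, S462 or S463 (-0.51 to -0.28, adjusted p up to 0.12). It was lost too without the 6 libraries with Krt14 above 1 CPM (-0.29), where Col8a1 stood at -0.86. S451, the only vehicle HSALR mouse left there, was the highest of its group for Col8a1 at 18.5 CPM. With AICAR in HSALR mice neither Col8a1 nor Col8a2 passed by limma voom (adjusted p = 0.053 and 0.065), with the epidermal marker score as a covariate (0.059 and 0.31) or with only the groups compared (0.078 and 0.053). Col8a2 in FVB/N mice was at -0.27 ± 0.19, adjusted p = 0.36.

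Col20a1, a fibril-associated collagen, was lower in vehicle HSALR than in vehicle FVB/N mice (log2 fold change -0.49 ± 0.16 SE, adjusted p = 0.038), although S451 at 5.51 CPM overlapped with S446 at 5.02 CPM. Col20a1 stood at 6.57, 5.02 and 6.32 CPM in the vehicle FVB/N mice and at 4.58, 3.81 and 4.44 CPM in the AICAR FVB/N mice. For Col20a1 in HSALR mice, the values were 5.51, 4.25, 3.65, 3.47 and 4.44 CPM after vehicle and 3.59, 3.04, 4.05, 4.93 and 3.46 CPM after AICAR. The call was lost without S445, S450, S452, S453, S458 or S459 (-0.61 to -0.41, adjusted p up to 0.15). It was also lost when scaled to Tbp, with the epidermal marker score as a covariate, with only the groups compared and without the 6 libraries. Col28a1, known from nerve, was lower after AICAR in HSALR mice (log2 fold change -0.49 ± 0.17 SE, adjusted p = 0.048), and was at -0.38 ± 0.22, adjusted p = 0.27 in FVB/N mice. Col28a1 stood at 1.24, 1.30 and 1.01 CPM in the vehicle FVB/N mice and at 1.14, 0.785 and 0.802 CPM in the AICAR FVB/N mice. For Col28a1 in HSALR mice, the values were 1.07, 0.666, 1.08, 0.853 and 0.973 CPM after vehicle and 0.658, 0.594, 0.839, 0.612 and 0.612 CPM after AICAR. Of the AICAR HSALR mice S460 alone reached the range of the vehicle HSALR mice, above S452. The HSALR call was lost in 18 of 28 alternatives. It was lost without S445, S446, S448, S449, S451, S453, S454, S455, S458, S459, S462 or S463 (-0.58 to -0.43, adjusted p up to 0.11). Other losses came when scaled to Tbp, with no filter on low counts, by limma voom and with the epidermal marker score as a covariate. The call was lost too with only the groups compared and without the 6 libraries with Krt14 above 1 CPM (-0.70). Col9a1, Col19a1, Col23a1 and Col26a1 passed in no comparison. Col10a1, under the limit of the rule at a mean count of 19.0, was higher in vehicle HSALR (0.367 to 1.13 CPM) than in vehicle FVB/N mice (0 to 0.0638 CPM), adjusted p = 0.0019, and lower after AICAR in HSALR mice (0.0612 to 0.299 CPM), -2.26 ± 0.59, adjusted p = 0.011. The Col10a1 gene overlaps Nt5dc1, and its reads may belong to either.

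Genes that act on collagen were listed by role, and for those named with AICAR in 1 genotype the value in the other follows. Shares of a list that passed are given in the order genotype after vehicle, genotype after AICAR, AICAR in HSALR and AICAR in FVB/N mice, where 26.9, 21.8, 26.6 and 13.2% of all tested genes passed. In AICAR against vehicle HSALR mice, 9 of 30 tested genes of chain processing and secretion were lower and 3 higher. The shares that passed were 16.7, 6.67, 40 and 13.3%. The lower ones were led by the cross-linking enzymes Loxl4 (-1.21 ± 0.22, adjusted p = 0.00092) and Loxl1 (-0.72 ± 0.14, adjusted p = 0.0018). Higher were Mia3 (0.28 ± 0.06, adjusted p = 0.0032), which helps export procollagen from the endoplasmic reticulum, P4ha2 (0.27 ± 0.08, adjusted p = 0.017), a prolyl 4-hydroxylase subunit, and P3h1 (0.24 ± 0.06, adjusted p = 0.012), a prolyl 3-hydroxylase. These 3 calls were lost when scaled to Tbp (0.16, 0.17 and 0.13) and without the 6 libraries with Krt14 above 1 CPM (0.31, adjusted p = 0.11 for Mia3, 0.32, adjusted p = 0.14 for P4ha2 and 0.19, adjusted p = 0.39 for P3h1), and P4ha2 also with library totals only (0.19, adjusted p = 0.075). P4ha2 and P3h1 lost theirs with the epidermal marker score as a covariate too (adjusted p = 0.17 and 0.25). None of the 9 lower calls was lost when scaled to Tbp and 4 were without the 6 libraries, Loxl4 and Loxl1 not among them.

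In FVB/N mice 2 genes of chain processing were lower after AICAR, Loxl4 (-1.09 ± 0.28, adjusted p = 0.018) and Loxl1 (-0.59 ± 0.18, adjusted p = 0.045), and 2 were higher, P4ha2 (0.35 ± 0.10, adjusted p = 0.027) and P3h1 (0.29 ± 0.08, adjusted p = 0.031). Mia3 was at 0.07 ± 0.08, adjusted p = 0.6. The Loxl4 call in FVB/N mice was lost without S446, S448 or S449 (-1.20 to -0.85, adjusted p up to 0.077), that of Loxl1 was lost without S445, S446, S447, S448, S449, S450, S452, S453, S454 or S462 (-0.68 to -0.43, adjusted p up to 0.17), that of P4ha2 was lost without S445, S449 or S450 (0.29 to 0.44, adjusted p up to 0.11) and that of P3h1 was lost without S445, S448, S449 or S450 (0.21 to 0.37, adjusted p up to 0.15). Between genotypes after vehicle 2 were higher in HSALR mice, the prolyl 4-hydroxylase subunits P4ha3 (1.06 ± 0.37, adjusted p = 0.043) and P4hb (0.25 ± 0.07, adjusted p = 0.016). Lower were 3, namely Tll1 (-1.08 ± 0.30, adjusted p = 0.015), a procollagen proteinase, P3h2 (-0.66 ± 0.18, adjusted p = 0.013), a prolyl 3-hydroxylase, and P4ha2 (-0.24 ± 0.09, adjusted p = 0.049), which stood at 0.0107 when scaled to Tbp. The P4ha3 call was lost without S445, S446, S447, S451, S453, S454 or S458 (0.80 to 1.32, adjusted p up to 0.16), that of P4hb lost without S445 (0.21 to 0.28, adjusted p up to 0.078), that of Tll1 lost without S446 (-1.35 to -0.92, adjusted p up to 0.051), that of P3h2 lost without S450 (-0.79 to -0.34, adjusted p up to 0.13) and that of P4ha2 lost without S445, S446, S447, S451, S454, S455, S459, S460, S462 or S463 (-0.30 to -0.15, adjusted p up to 0.26). After AICAR 2 were lower in HSALR mice, namely Plod2 (-0.89 ± 0.20, adjusted p = 0.0048), a lysyl hydroxylase, and P4ha2 (-0.33 ± 0.09, adjusted p = 0.014), the latter lost without S449 (-0.37 to -0.27, adjusted p up to 0.071).

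Of 20 partners of the fibrils, 7 were lower with AICAR in HSALR mice and none was higher, and none passed in the other comparisons (0, 0, 35 and 0%). The median log2 fold change of the 20 was -0.34 with AICAR in HSALR and -0.28 in FVB/N mice, the smaller groups. For the interaction their median was 0.002 and none passed, so a difference between genotypes is not shown. Lum, Fmod and Kera, of the 7 lower, are also markers above. The lower genes with the largest changes were Fbn1 (-0.85 ± 0.20, adjusted p = 0.0052), the fibrillin of microfibrils, and Thbs3 (-0.68 ± 0.12, adjusted p = 7e-04), a thrombospondin. Fbn1 stood at -0.55 ± 0.25, adjusted p = 0.17 and Thbs3 at -0.46 ± 0.15, adjusted p = 0.057 with AICAR in FVB/N mice.

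Of 15 genes of collagen breakdown and its inhibitors, 5 were higher and 2 lower in HSALR than in FVB/N mice after vehicle, and the shares that passed were 46.7, 20, 33.3 and 13.3%. They included the inhibitor Timp1 (2.93 ± 0.40, adjusted p = 9e-05), the collagenase Mmp13 (2.45 ± 0.60, adjusted p = 0.0072), the inhibitor Timp3 (-0.58 ± 0.10, adjusted p = 0.00051) and the gelatinase Mmp9 (-0.70 ± 0.25, adjusted p = 0.049). The Mmp9 call was lost without S445, S446, S447, S448, S451, S452, S453, S454, S458, S459, S460, S462 or S463 (-0.90 to -0.29, adjusted p up to 0.42). Of 4 macrophage markers 2 were higher in the same comparison, Cd68 (0.77 ± 0.20, adjusted p = 0.0094) and Csf1r (0.47 ± 0.13, adjusted p = 0.015), and their part in it was not tested. The Cd68 call was lost without S445 (0.58 to 0.88, adjusted p up to 0.062) and the Csf1r call lost without S445 or S450 (0.38 to 0.59, adjusted p up to 0.088). Between genotypes after AICAR 2 were higher in HSALR mice, Timp1 (1.81 ± 0.39, adjusted p = 0.0042) and the stromelysin Mmp3 (1.04 ± 0.26, adjusted p = 0.011), and Timp3 (-0.51 ± 0.10, adjusted p = 0.0022) was lower. The Mmp3 call was lost without S449 (0.88 to 1.25, adjusted p up to 0.055). Mmp3 was also higher in HSALR mice after vehicle (0.80 to 1.39 leaving out mice in turn). That call was lost without S450 and without the 6 libraries.

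With AICAR in HSALR mice 3 genes of breakdown were higher, Mmp11 (1.14 ± 0.18, adjusted p = 4e-04), Timp4 (0.72 ± 0.25, adjusted p = 0.047) and Timp3 (0.51 ± 0.09, adjusted p = 0.00065), and the inhibitors Timp1 (-1.17 ± 0.30, adjusted p = 0.01) and Timp2 (-0.30 ± 0.08, adjusted p = 0.012) were lower. With the epidermal marker score as a covariate the Timp1 and Timp2 calls were lost (-0.90, adjusted p = 0.11 and -0.29, adjusted p = 0.081), and that of Timp2 without the 6 libraries too (-0.29, adjusted p = 0.27). The Timp4 call was lost without S445, S447, S448, S449, S451, S452, S453, S454, S455, S459, S460, S462 or S463 (0.60 to 1.09, adjusted p up to 0.11). In FVB/N mice 2 were higher after AICAR, Mmp15 (0.45 ± 0.09, adjusted p = 0.0049) and Timp3 (0.43 ± 0.11, adjusted p = 0.019), the latter lost without S445 or S447 (0.35 to 0.50, adjusted p up to 0.091). Mmp15 stood at -0.03 ± 0.07, adjusted p = 0.77 in HSALR mice. The other genes stood in FVB/N mice at 0.71 ± 0.23, adjusted p = 0.056 for Mmp11, 0.18 ± 0.33, adjusted p = 0.78 for Timp4, -0.05 ± 0.43, adjusted p = 0.96 for Timp1 and -0.26 ± 0.10, adjusted p = 0.11 for Timp2.

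Of 11 collagen receptors tested, 2 were higher and 3 lower in HSALR mice after vehicle, 2 higher after AICAR, 3 lower with AICAR in HSALR mice, and 1 higher and 2 lower with AICAR in FVB/N mice (45.5, 18.2, 27.3 and 27.3%). The integrin chain Itgb1 was higher in HSALR mice after vehicle (0.70 ± 0.06, adjusted p = 1e-06) and after AICAR (0.30 ± 0.06, adjusted p = 0.0022), as was the receptor phosphatase Ptprd (0.44 ± 0.11, adjusted p = 0.0097 and 0.44 ± 0.11, adjusted p = 0.011), the latter call being lost without S448 (0.34 to 0.50, adjusted p up to 0.058). Lower after vehicle were the partners of Itgb1 in collagen binding, Itga1 (-0.82 ± 0.13, adjusted p = 0.00027) and Itga2 (-0.60 ± 0.19, adjusted p = 0.029), the latter lost without S445, S446, S458 or S459 (-0.69 to -0.47, adjusted p up to 0.14). With AICAR in HSALR mice Ddr1 (-0.69 ± 0.13, adjusted p = 0.0012), a discoidin receptor, Ptprs (-0.20 ± 0.07, adjusted p = 0.045) and Itgb1 (-0.17 ± 0.05, adjusted p = 0.018) were lower. The Ptprs call was lost without S446, S447, S451, S453, S454, S455, S458, S459 or S463 (-0.24 to -0.18, adjusted p up to 0.11). Ddr1 stood at -0.15 ± 0.17, adjusted p = 0.6 and Ptprs at -0.05 ± 0.09, adjusted p = 0.75 with AICAR in FVB/N mice. There Itgb1 was higher after AICAR (0.23 ± 0.06, adjusted p = 0.028) and Itga2 (-0.77 ± 0.22, adjusted p = 0.029) and Itga1 (-0.51 ± 0.15, adjusted p = 0.031) lower, where HSALR mice stood at -0.45 ± 0.17, adjusted p = 0.064 and 0.08 ± 0.11, adjusted p = 0.64. The FVB/N call of Itgb1 was lost without S445, S446, S448 or S449 (0.20 to 0.25, adjusted p up to 0.093), that of Itga2 lost without S445, S446 or S449 (-0.90 to -0.59, adjusted p up to 0.12) and that of Itga1 lost without S445, S446, S447, S448 or S449 (-0.57 to -0.46, adjusted p up to 0.11). Itgb1 was the gene of these lists that passed the interaction test (-0.40 ± 0.08, adjusted p = 0.034). The interaction call was lost without S445, S446, S447, S448, S449, S450, S451, S452, S453, S454, S455, S462 or S463 (-0.43 to -0.37, adjusted p up to 0.11). It was also lost with the epidermal marker score as a covariate and without the 6 libraries.

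Of 16 basement membrane and endplate partners, 2 were higher and 1 lower in HSALR mice after vehicle, 5 lower after AICAR, 1 higher and 2 lower with AICAR in HSALR mice, and 3 higher and 1 lower with AICAR in FVB/N mice (18.8, 31.2, 18.8 and 25%). The laminin gene Lama5 was higher with AICAR in HSALR mice (0.93 ± 0.12, adjusted p = 5.5e-05) and in FVB/N mice (0.72 ± 0.15, adjusted p = 0.0054). The perlecan gene Hspg2 was lower in HSALR mice after AICAR (-0.49 ± 0.12, adjusted p = 0.0093), a call lost without S449 (-0.54 to -0.41, adjusted p up to 0.052). At the endplate, Lrp4, the agrin receptor, was lower with AICAR in HSALR mice (-0.96 ± 0.12, adjusted p = 5.6e-05) and in FVB/N mice (-0.75 ± 0.15, adjusted p = 0.0053). Agrn itself was lower in vehicle HSALR mice (-0.37 ± 0.09, adjusted p = 0.0044). After AICAR Agrn was lower in HSALR mice too (-0.34 to -0.24 leaving out mice in turn). That call was lost without S447 or S449 and when scaled to Tbp. The receptor kinase Musk was higher in vehicle HSALR than in vehicle FVB/N mice (1.43 ± 0.26, adjusted p = 0.00085). It was also higher with AICAR in FVB/N mice (1.02 ± 0.28, adjusted p = 0.025), a call lost without S445, S446, S449 or S450 (0.64 to 1.17, adjusted p up to 0.14), and stood at 0.23 ± 0.21, adjusted p = 0.45 with AICAR in HSALR mice. The acetylcholinesterase gene Ache was higher with AICAR in FVB/N mice (1.22 ± 0.19, adjusted p = 0.00087), did not pass in HSALR mice (0.39 ± 0.14, adjusted p = 0.054), and was lower in HSALR than in FVB/N mice after AICAR (-0.72 ± 0.16, adjusted p = 0.0057).

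Of 16 genes of the TGF-β pathway, a main inducer of collagen transcription, 3 were higher and 2 lower in HSALR mice after vehicle, and 1 higher and 4 lower after AICAR. With AICAR, 1 was higher and 4 lower in HSALR mice, and 3 higher and 3 lower in FVB/N mice (31.2, 31.2, 31.2 and 37.5%). Among the ligands, Tgfb3 (0.54 ± 0.08, adjusted p = 0.00016) and Tgfb1 (0.54 ± 0.17, adjusted p = 0.029) were higher in vehicle HSALR mice, Tgfb1 was higher with AICAR in FVB/N mice (0.72 ± 0.19, adjusted p = 0.02; -0.10 ± 0.14, adjusted p = 0.63 in HSALR mice), and Tgfb2 (-0.69 ± 0.11, adjusted p = 0.00049) was lower in HSALR mice after AICAR. The first Tgfb1 call was lost without S445, S450, S451 or S458 (0.45 to 0.65, adjusted p up to 0.11) and the second lost without S445, S447 or S450 (0.55 to 0.86, adjusted p up to 0.082). Of the genes whose products hold the latent ligands in the matrix, Ltbp3 (-0.20 ± 0.07, adjusted p = 0.034) was lower in vehicle HSALR mice and Ltbp1 (0.59 ± 0.09, adjusted p = 0.00025) higher in HSALR mice after AICAR, while Ltbp4 was lower with AICAR in HSALR mice (-0.61 ± 0.08, adjusted p = 5.6e-05) and in FVB/N mice (-0.35 ± 0.10, adjusted p = 0.028). Ltbp1 was also higher in HSALR mice after vehicle (0.46 to 0.53 leaving out mice in turn), a call lost without the 6 libraries. The Ltbp3 call was lost without S445, S446, S450, S452, S453, S458 or S459 (-0.23 to -0.19, adjusted p up to 0.097). That of Ltbp4 in FVB/N mice was lost without S445, S446, S448 or S449 (-0.41 to -0.29, adjusted p up to 0.12). The co-receptor Tgfbr3 was higher with AICAR in HSALR mice (0.36 ± 0.08, adjusted p = 0.0057; 0.17 ± 0.11, adjusted p = 0.31 in FVB/N mice).

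Of the signal carriers of that pathway, Smad4 was lower in vehicle HSALR mice (-0.23 ± 0.07, adjusted p = 0.021), a call lost without S445 (-0.26 to -0.18, adjusted p up to 0.079), and scaled to Tbp Smad4 and Ltbp3 stood at 0.0428 and 0.0701. Smad3 was lower in HSALR mice after AICAR (-0.75 ± 0.19, adjusted p = 0.012), a call lost without S449 (-0.88 to -0.60, adjusted p up to 0.07). It was higher with AICAR in FVB/N mice (0.73 ± 0.22, adjusted p = 0.038; 0.07 ± 0.17, adjusted p = 0.8 in HSALR mice), a call lost without S445, S446, S447, S449 or S450 (0.58 to 0.86, adjusted p up to 0.15). The inhibitory Smad7 was lower with AICAR in HSALR mice (-1.02 ± 0.27, adjusted p = 0.012; -0.39 ± 0.35, adjusted p = 0.49 in FVB/N mice). Ccn2, a target of the pathway, was lower with AICAR in FVB/N mice (-1.42 ± 0.30, adjusted p = 0.0059) and in HSALR mice (-1.06 ± 0.23, adjusted p = 0.0035), the latter lost with the epidermal marker score as a covariate (-0.78, adjusted p = 0.067) and without the 6 libraries (-0.85, adjusted p = 0.11). Over the 6 lists of genes that act on collagen, 9 of 25 calls after vehicle, 8 of 17 after AICAR, 7 of 35 with AICAR in HSALR mice and 7 of 19 with AICAR in FVB/N mice were lost when scaled to Tbp, and 19, 3, 19 and 11 without the 6 libraries with Krt14 above 1 CPM. Like the members, these lists are described by counts and were not tested as sets.

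For Ltbp1 and Mmp3 after vehicle and Agrn after AICAR such losses are given above. Among the other calls of genes named from these lists, those that rested on other choices were as follows. Between genotypes after vehicle calls were lost for Agrn, Itga1, Itga2, Ltbp3, Mmp13, Mmp9, P3h2, P4ha2, P4hb, Ptprd, Smad4, Tgfb1, Timp3 and Tll1 without the 6 libraries, for Agrn, Itga2, Ltbp3, Mmp9, P3h2, P4ha2, Smad4 and Timp3 when scaled to Tbp, for Itga2, Ltbp3, Mmp9, P4ha2 and P4ha3 with the epidermal marker score as a covariate, and for Itga2, Ltbp3, Mmp9, P4ha2, P4ha3 and Smad4 in at least 1 of the fits with other scalings, filters, dispersions, tools or only the groups compared. Between genotypes after AICAR calls were lost for Ptprd without the 6 libraries, and for Hspg2, Itgb1, P4ha2 and Ptprd when scaled to Tbp. With AICAR in HSALR mice calls were lost for Ccn2, Ddr1, Itgb1, Mia3, Mmp11, P3h1, P4ha2, Ptprs, Smad7, Tgfbr3 and Timp2 without the 6 libraries, for Mia3, P3h1, P4ha2, Ptprs, Tgfbr3 and Timp4 when scaled to Tbp, for Ccn2, Itgb1, P3h1, P4ha2, Timp1, Timp2 and Timp4 with the epidermal marker score as a covariate, and for P4ha2, Ptprs and Timp4 in at least 1 of the fits with other scalings, filters, dispersions, tools or only the groups compared. With AICAR in FVB/N mice calls were lost for Itga2, Itgb1, Loxl1, Mmp15, P3h1, P4ha2, Smad3, Tgfb1 and Timp3 without the 6 libraries, for Itga1, Itga2, Loxl1, Loxl4, Lrp4 and Ltbp4 when scaled to Tbp, and for Itga2, Itgb1, Loxl1, Ltbp4, Musk, P3h1, P4ha2, Smad3, Tgfb1 and Timp3 in at least 1 of the fits with other scalings, filters, dispersions, tools or only the groups compared.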

How the data were processed

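Gastrocnemius muscle of 16 mice was analysed by poly(A) RNA sequencing with a stranded, single-end library. The authors mapped reads to mm10 with STAR 2.5.2a, reporting 1 location for reads with several equal hits, and deposited raw counts of reads starting in RefSeq exons of each gene (QuasR). Whether counting used the strand is not given in the sources used here. Entrez IDs were named from RefSeq (24374 matched, 80 did not).

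From the deposited counts, edgeR 4.0.16 in R 4.3.3 was used (TMM scaling, filterByExpr, quasi-likelihood test, 1 term per group, all 16 mice), with Benjamini-Hochberg adjustment over 15487 genes and a threshold of 0.05. CPM are TMM-normalized, CPM per kb use the deposited gene length, and 95% intervals come from the same fit. The groups are 5 HSALR mice with vehicle, 5 with AICAR, 3 FVB/N mice with vehicle and 3 with AICAR. Depth was 64890014 to 81987726 counts a library, and the number of mice sets the precision. The script was tested on simulated data. Alternatives were DESeq2 1.42.0, limma 3.58.1 voom, other scalings and filters, robust dispersion, an epidermal marker score as covariate, only the compared groups, and each mouse left out. Leaving out the 6 libraries with Krt14 above 1 CPM was chosen after seeing the data. Values of every mouse are given, per class, for up to 5 called members with the largest change and for the chains of its most abundant type. From each list of genes that act on collagen, up to 2 higher and 2 lower genes with the largest called changes per comparison are named, and further genes, such as Cd68, were named after their values were seen. Of the genes so chosen, 1 is not reported here. The members and all lists were chosen with earlier results of these data known.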

Additional observations from a re-analysis of the deposited data

Results flagged for a closer look

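Single mice stood apart from the other 4 of their group by Dixon's criterion in 7 of 78 groups of collagen gene values, where chance gives 3.9, and in 4 of 40 groups of sums, shares and ratios, where chance gives 2. Chance alone marks about 1 in 20 groups.

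Among the AICAR HSALR mice, S455 had the fibrillar pattern nearest to the vehicle mice. Its fibrillar share of collagen counts was 56.17% (others 48.11 to 48.98%), its share of Col1a1, Col1a2 and Col3a1 together 46.57% (others 37.87 to 39.11%) and its basement membrane share 22.65% (others 27.2 to 28.88%). Col14a1, a fibril surface collagen, stood at 31.01 CPM in S455 (others 18.47 to 21.66 CPM). In the same group, S460 was high for Col19a1 at 2.916 CPM (others 1.682 to 1.953 CPM) and for Col28a1 at 0.8393 CPM (others 0.5941 to 0.6583 CPM). S463 was high for Col9a1, a chain of cartilage collagen type IX, at 6.668 CPM (others 0.7922 to 1.408 CPM).

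Among the vehicle HSALR mice, S452 was low for Col22a1 at 20.1 CPM (others 24.31 to 26.02 CPM). S458 was high for Col6a5 at 2.473 CPM (others 0.3126 to 0.5597 CPM). S459 was low for Col26a1 at 0.3198 CPM (others 0.487 to 0.5436 CPM) and had a count ratio of Col4a3 to Col4a4 of 1.449 (others 0.8818 to 1.022).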

How the results depend on the processing

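Over 28 alternative fits of 68 collagen gene results, 1662 of 1904 values kept direction and side of the threshold, 159 lost the call, 78 gained one and 5 turned direction, none of them a called value. With AICAR in HSALR mice Col4a1 turned to -0.22, Col4a2 to -0.18 and Col9a1 to 0.26 without the 6 libraries with Krt14 above 1 CPM, and leaving out mice in turn gave -1.32 (without S463) to 0.0195 (without S459) for Col9a1. Between genotypes after vehicle it gave -2.06 (without S458) to 0.16 (without S446) for Col6a5. The cause of these shifts was not tested. After vehicle, 7 members differed between genotypes, and 2 did without the 6 libraries with Krt14 above 1 CPM. After AICAR the 8 members became 13 with DESeq2 and 17 with only the groups compared. For AICAR in HSALR mice the 16 members became 10 with limma voom and 9 without the 6 libraries. For AICAR in FVB/N mice the 4 members became 1 with library totals only and 0 without the 6 libraries. Leaving out each mouse in turn gave 4 to 9 members between genotypes after vehicle (4 without S445 or S459, 9 without S446), 6 to 12 after AICAR (12 without S450), 9 to 17 for AICAR in HSALR mice (9 without S462, 10 without S463 or S453), 0 to 5 for AICAR in FVB/N mice and 0 for the interaction. Calls held without any single mouse for 2 of 7, 5 of 8, 8 of 16 and 0 of 4 members in the first 4 comparisons.

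Scaling to Tbp moved the median log2 fold change of all genes to 0.28 between genotypes after vehicle, -0.13 for AICAR in HSALR mice, 0.19 for AICAR in FVB/N mice and -0.32 for the interaction. The percent of all called genes that were higher then became 95.4 instead of 57.2 after vehicle, 25.2 instead of 51.3 for AICAR in HSALR mice (31 with library totals) and 94.3 instead of 63.8 for AICAR in FVB/N mice (50.7 with library totals, 45.1 with upper-quartile scaling). For the interaction 107 genes passed with edgeR, 538 with DESeq2, 381 with Tbp scaling and 0 without the 6 libraries. With Tbp scaling the differences after vehicle turned to 0.0107 for P4ha2, 0.0428 for Smad4, 0.0701 for Ltbp3 and 0.00499 for Pdgfrb, none of which then passed. The epidermal marker Krtdap turned to 0.47 with the epidermal score as a covariate and to 0.54 without the 6 libraries for AICAR in HSALR mice, again without passing. Of the epidermal markers lower in HSALR mice after AICAR, leaving out mice in turn gave -9.97 to 3.41 for Krt1, -12.30 to 3.17 for Krt5, -10.39 to 0.51 for Krt14, -11.28 to 1.38 for Krt15 and -7.46 to 0.39 for Lor. The values above 0 are those without S448, and Lor was at 0.39 without the 6 libraries too, none of which passed.

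Shares are given here in the order vehicle FVB/N, AICAR FVB/N, vehicle HSALR and AICAR HSALR. Leaving out the most abundant gene of a class, from the class and the total alike, must lower its share. The mean fibrillar share without Col1a2 was 46, 42, 49.8 and 40.3%. The basement membrane share without Col4a1 was 12.1, 15.1, 10.8 and 16.3%. In both genotypes the former thus stayed lower and the latter higher after AICAR than after vehicle. The endplate or tendon share without Col14a1 was 3.63, 2.76, 2.7 and 2.83%, and the beaded filament share without Col6a3 10.1, 9.75, 11.3 and 10.7%. Without Col16a1 the share of the other collagens was 1.9% in AICAR FVB/N, 2.24% in vehicle HSALR and 2.11% in AICAR HSALR mice. The value of vehicle FVB/N mice is not given here.

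No paired analysis was possible because each mouse carries its own number and no number is shared between groups.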
